A study of Mus musculus with 4 samples.

Results

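The genes described here are ligands and receptors of the tumour necrosis factor (TNF) superfamily, measured on microarrays in conventional dendritic cells of type 2 (cDC2) sorted from mouse spleen. They were taken by symbol: every probe set annotated to exactly 1 symbol that begins with Tnfsf or Tnfrsf and a digit, together with Tnf, Lta, Ltb, Ltbr, Fas, Fasl, Cd27, Cd70, Ngfr and Eda2r. This gave 39 genes of 19938 with a name on the array, 14 ligands and 25 receptors, each measured by 1 probe set. Of the 39, 28 were bright enough to enter the test, 10 ligands and 18 receptors. The other 11 are given by their levels.

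The labels give spleen as the tissue, while the design text also mentions bone marrow. The study compared wild-type (WT) cDC2 with cDC2 labelled Id2 knockout (Id2 KO), with 2 arrays in each group. All 4 samples came from chimeric mice with Zbtb46-GFP, a reporter in which green fluorescent protein marks cells that express the dendritic cell factor Zbtb46. By the labels, Id2 KO was what set the groups apart. Id2 is an inhibitor that binds E proteins, transcription factors that recognise E-box sequences, and keeps them from DNA. The labels give neither the age of the mice, the Id2 allele, the host cells that remained nor the mice behind each replicate. Hence the p-values here reflect no more than the spread among these 4 samples, and that spread may be technical.

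TNF ligands are trimeric proteins that are mostly made at the cell surface and can be shed. Some of their receptors carry a death domain, through which they can start cell death, and many recruit TRAF adaptors that lead to NF-κB. Dendritic cells use both sides of the family: their ligands costimulate T cells and support B cells, and their receptors set survival and maturation. In the spleen, lymphotoxin acting on its receptor Ltbr is known to maintain cDC2.

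The labels were checked first. Id2 had log2 intensities of 9.14 and 9.08 (WT) and of 8.71 and 8.97 (labelled Id2 KO), a difference of -0.27 that did not pass the test (adjusted p = 0.172), and the deleted part of the gene is not given in the sources used here. Xist was at 11.96 on both WT arrays and at 6.67 and 6.68 on the others. The Y-linked Kdm5d was at 5.72 and 5.53 (WT) and at 8.08 and 8.50 (Id2 KO). Uty, also Y-linked, was at 4.61 and 4.62 (WT) and at 7.78 and 7.91 (Id2 KO). Genotype and sex-linked levels thus split the arrays alike and cannot be told apart. Of the cDC2 markers, Sirpa, Itgam, Irf4, Cd4, Klf4 and Cd209a lay above log2 9 on every array and Clec10a lay below the filter level of log2 6.77 throughout. Of 10 tested cDC2 markers, Itgam, Cd4 and Klf4 fell, Esam and Relb rose (by 0.53 and 0.42) and 5 did not pass. Zbtb46 itself fell by 1.02 and entered the test through the WT arrays alone. All 13 tested neutrophil markers fell, of which Mmp8, Cxcr2, Mpo and Prtn3 entered the test through the WT arrays alone. Summed over the 14 measured ones, intensity was 18534 and 19223 (WT) and 1808 and 2697 (Id2 KO), and the sums for other lists likewise cover every measured marker. Cell cycle genes (20 of 21 rose) and B cell markers (10 of 12 rose and Cd22 fell) moved too, the B cell markers from summed intensities of 2974 and 2965 to 4052 and 4464. Of the B cell markers, Cr2 entered the test through the Id2 KO arrays alone. Whether these shifts take part in the results below was not tested, and in bulk arrays fewer cells of a type and less RNA per cell cannot be told apart.

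The changes called in the TNF superfamily were small. Of the 28 tested genes, the ligands Tnfsf14 and Tnfsf8 and the receptor Tnfrsf1b fell, the ligand Ltb rose, and 24 did not pass (limma, Benjamini-Hochberg adjusted p under 0.05). All 4 changes were smaller than 1.5-fold. The count of 4, or 14.3% of the tested genes, stands beside 8.04% of all 11963 tested genes. Of the 28, 3 fell (10.7%, against 2.52% of all tested genes) and 1 rose (3.57%, against 5.53%). The median difference of the 28 was -0.05 on the log2 scale and that of all tested genes 0.01, and over all 39 members it was -0.06 against -0.01 over all genes with a name. The groups did not overlap in 14 of the 28, 10 lower and 4 higher, a share of 50% that is near the 50.7% of all tested genes (22.8% lower and 27.9% higher). No test of the family as a set was made.

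**Figure D1:**
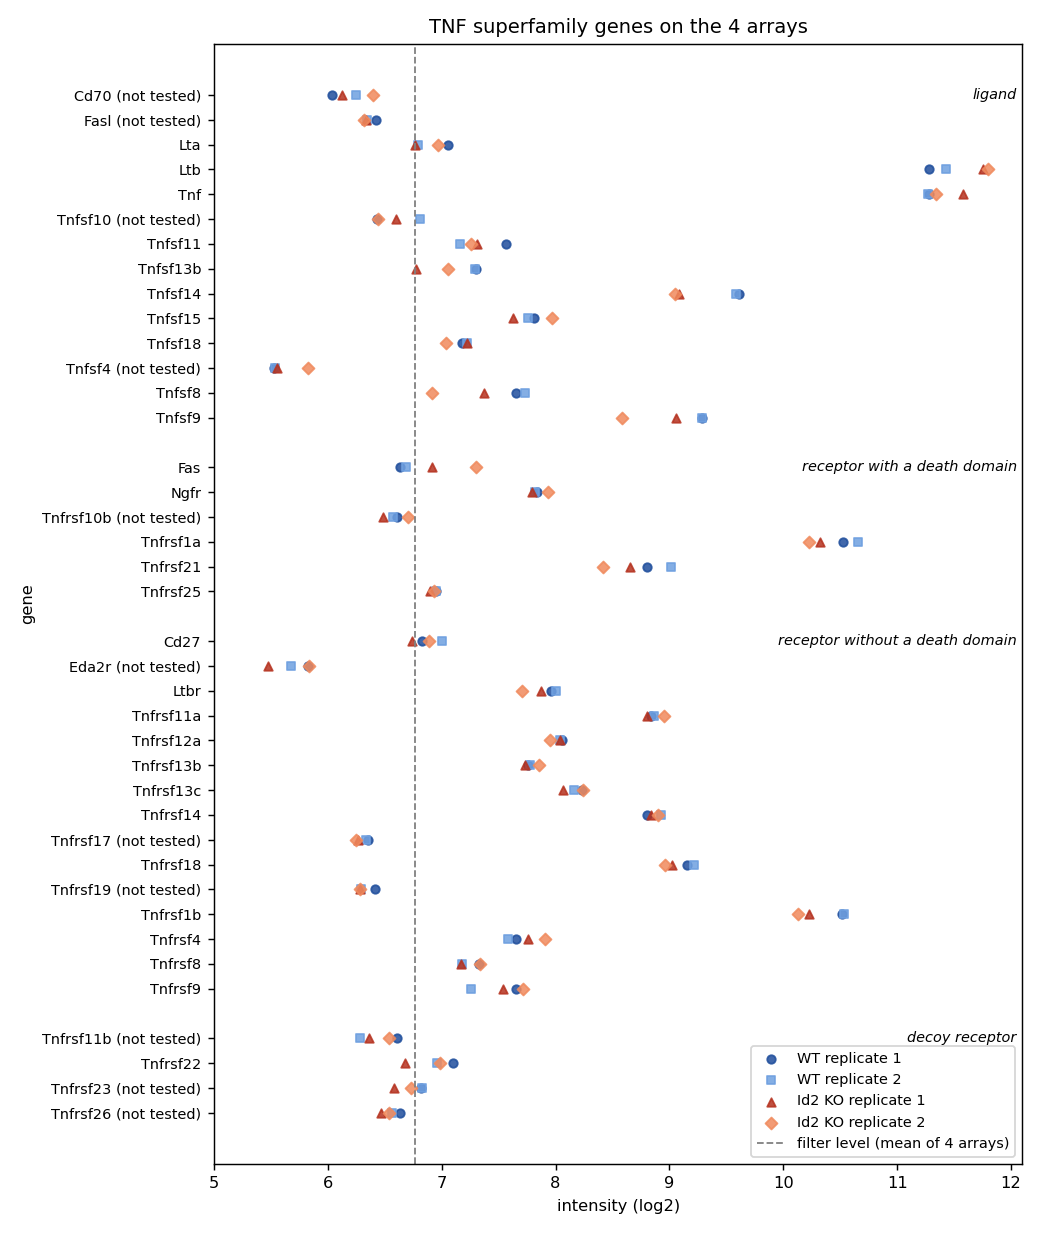
Log2 intensity of each of the 39 TNF superfamily genes on each array, WT in blue and Id2 KO in red and orange, with genes grouped by role and the filter level on the mean of the 4 arrays as a dashed line. The 4 arrays of most genes lie close together, while those of Tnfsf14, at 9.61 and 9.59 in WT against 9.08 and 9.05 in Id2 KO, separate into pairs.

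The promoters of the 4 called genes are shown because E proteins, the partners of Id2, bind the E-box. The sequences are the 250 bases before the annotated start, from RefSeq (GRCm38.p6), 5′ to 3′ on the strand of the gene. Capitals mark each match of the general E-box CANNTG, which reads the same on both strands as a pattern.
Tnfsf14, chr17:57194182-57194431, minus strand: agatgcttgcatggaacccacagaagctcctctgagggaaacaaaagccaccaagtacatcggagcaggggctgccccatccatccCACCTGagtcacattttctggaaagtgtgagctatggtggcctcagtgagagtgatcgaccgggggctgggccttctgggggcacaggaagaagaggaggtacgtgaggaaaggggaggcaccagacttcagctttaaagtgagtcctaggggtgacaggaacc
Ltb, chr17:35194257-35194506, plus strand: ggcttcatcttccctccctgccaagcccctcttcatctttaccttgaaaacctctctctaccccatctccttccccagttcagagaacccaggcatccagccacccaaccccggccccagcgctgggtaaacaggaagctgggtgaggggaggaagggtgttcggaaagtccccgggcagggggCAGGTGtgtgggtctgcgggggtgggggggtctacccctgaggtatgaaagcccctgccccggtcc
Tnfrsf1b, chr4:145246871-145247120, minus strand: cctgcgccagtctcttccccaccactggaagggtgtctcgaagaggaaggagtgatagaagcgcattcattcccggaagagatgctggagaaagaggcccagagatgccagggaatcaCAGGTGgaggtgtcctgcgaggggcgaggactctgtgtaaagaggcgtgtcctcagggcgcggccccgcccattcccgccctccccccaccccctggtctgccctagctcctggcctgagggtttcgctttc
Tnfsf8, chr4:63861285-63861534, minus strand: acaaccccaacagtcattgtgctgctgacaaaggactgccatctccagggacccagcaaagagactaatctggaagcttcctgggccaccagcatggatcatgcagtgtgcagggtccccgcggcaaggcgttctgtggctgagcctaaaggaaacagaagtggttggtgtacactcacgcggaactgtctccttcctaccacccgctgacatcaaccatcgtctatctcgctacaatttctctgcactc

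The windows of Tnfsf14, Ltb and Tnfrsf1b held 1 E-box each and that of Tnfsf8 none. All 3 were CAGGTG, read on the opposite strand as CACCTG in Tnfsf14, and began 164, 66 and 132 bases before the start. CAGGTG occurred on either strand in 17.2% of the 32851 promoter windows of that length in the table and in 9 of the 36 windows of the members, which stood for 32 genes. CAGCTG, another form of the E-box, was in 13% of all windows and 7 of the 36, and in none of the 4 shown. CANNTG, which includes both, was in 66.2% and in 28 of the 36. Of the genes with the match, Ltb rose and Tnfsf14 and Tnfrsf1b fell, and Tnfsf8, without it, fell. A match of letters is no evidence of binding.

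Among the ligands, Tnfsf14 passed in the comparison and in all 12 alternatives to it. Tnfsf14 encodes LIGHT, which costimulates T cells through Tnfrsf14 (HVEM) and also binds Ltbr. It was at 9.61 and 9.59 (WT) and at 9.08 and 9.05 (Id2 KO) on the log2 scale. Both WT arrays lay above both others, and the gap within each group was at most 0.04. The difference was -0.54 (95% interval -0.71 to -0.36, n = 2 per group), a 1.45-fold lower level (adjusted p = 0.00320). It was the single member that passed with all arrays and with each array left out in turn, as 3.38% of all tested genes did.

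Tnfsf8 (CD30 ligand), which binds the receptor CD30 on activated lymphocytes, had the lowest difference among the members, with unequal replicates. It was at 7.65 and 7.73 in WT and at 7.37 and 6.91 in Id2 KO. The groups did not overlap, and the gap of 0.46 between the Id2 KO arrays was wider than that between WT arrays. Tnfsf8 fell by 0.55 (95% interval -0.86 to -0.24, 1.46-fold, adjusted p = 0.0415). Without Id2 KO replicate 2 the difference was -0.32 (adjusted p = 0.0835) and without Id2 KO replicate 1 it was -0.78 (adjusted p = 9.34e-04). The call was also lost without either WT replicate (adjusted p = 0.140 and 0.173), with renewed quantile normalization (0.0519), with no filter (0.0681) and with a replicate block (0.0730), and held in 5 of 11 alternatives.

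Ltb, lymphotoxin beta, which joins lymphotoxin alpha in a membrane-bound ligand of Ltbr, was the only one of the 28 to pass the test upward. It was at 11.28 and 11.43 in WT and at 11.75 and 11.80 in Id2 KO, with both Id2 KO arrays above both WT arrays. The difference was 0.42 (95% interval 0.22 to 0.62, 1.34-fold, adjusted p = 0.0186). Without WT replicate 1 it was 0.34 and did not pass (adjusted p = 0.174). Ltb is also made by B and T cells. Of 12 tested B cell markers, 10 rose in the same arrays, Cd22 fell (difference -0.56) and Ighm did not pass. Of 6 tested T cell markers, Cd3d fell and the other 5 did not pass. The summed T cell intensity was 1890 and 1886 in WT against 1875 and 1845 in Id2 KO. The part of B cells in the rise of Ltb was not tested.

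The partners of Ltb in the TNF locus did not pass. Ltb, Tnf and Lta lie next to each other on chromosome 17 in the gene order of the assembly GRCm38.p6. Tnf, the founding inflammatory cytokine of the family, was at 11.28 and 11.27 in WT and at 11.58 and 11.35 in Id2 KO. Both Id2 KO arrays were above WT, but the difference of 0.19 (95% interval -0.03 to 0.41) did not pass (adjusted p = 0.314), and the gap between the Id2 KO arrays was 0.23. Lta, lymphotoxin alpha, was at 7.06 and 6.79 in WT against 6.76 and 6.97 in Id2 KO, so its groups overlapped.

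Tnfsf9 and Tnfsf13b were lower without passing. Tnfsf9 (4-1BB ligand), a costimulator of CD8 T cells, was at 9.28 on both WT arrays and at 9.05 and 8.58 in Id2 KO. Its difference of -0.46 (95% interval -0.77 to -0.15) had an adjusted p of 0.0810. The gap between the Id2 KO arrays, 0.47, was as wide as the difference. With renewed quantile normalization it passed (-0.52, adjusted p = 0.0432). Without Id2 KO replicate 1 it also passed (-0.70, adjusted p = 0.00161) and without Id2 KO replicate 2 the difference was -0.23 (adjusted p = 0.208). Tnfsf13b (BAFF), the survival factor of mature B cells, was at 7.30 on both WT arrays and at 6.78 and 7.05 in Id2 KO, a difference of -0.38 (95% interval -0.62 to -0.15, adjusted p = 0.0567). Here Id2 KO replicate 1 was the lower of the pair, and without replicate 2 the difference was -0.52 and passed (adjusted p = 0.00779), whereas without replicate 1 it was -0.24 (adjusted p = 0.246).

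The other tested ligands differed by less than their replicates. Tnfsf11 (RANK ligand), Tnfsf15 (TL1A) and Tnfsf18 (GITR ligand) had differences of -0.08, 0.02 and -0.07. Their groups overlapped. Of the untested ligands, Fasl, Cd70 and Tnfsf4 (OX40 ligand) lay below the filter level on every array, and Tnfsf10 (TRAIL) lay above it on 1 of 4 arrays, at 6.81 in WT replicate 2. No background was measured, so these levels do not show whether the genes were expressed. A probe set shared by Tnfsf12 and Tnfsf13 was left out because it names several genes.

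**Figure D2:**
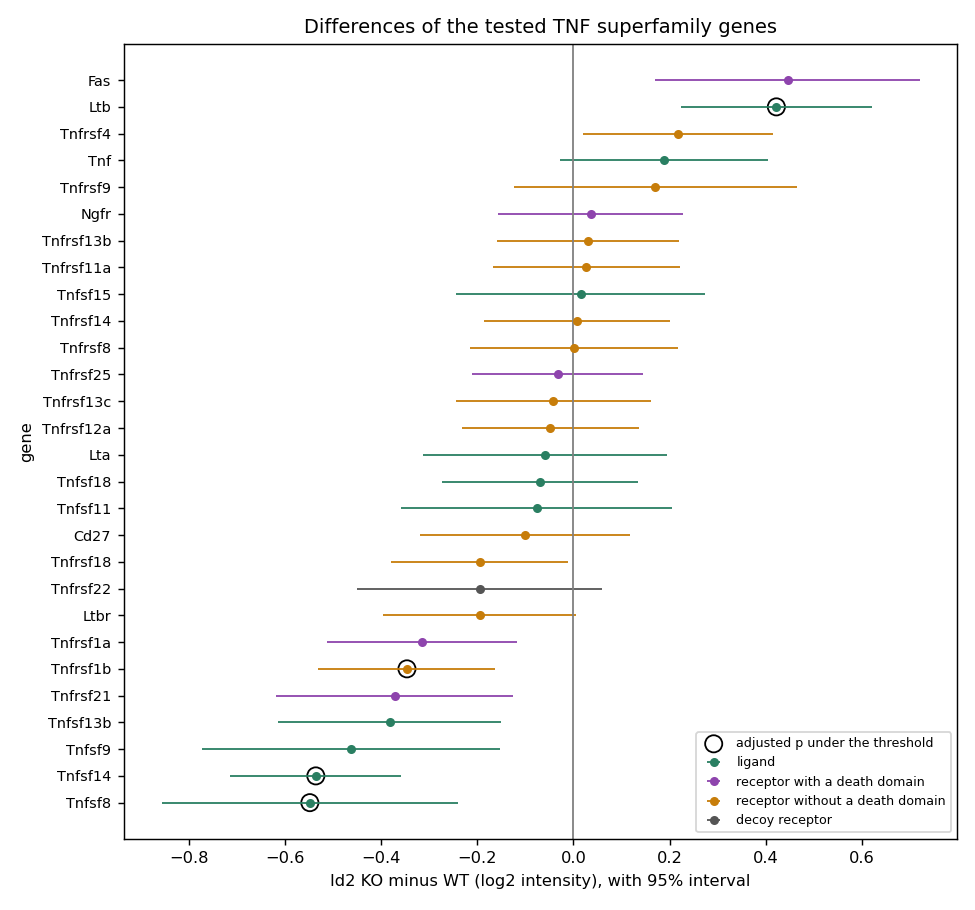
Difference between Id2 KO and WT in log2 intensity for the 28 tested TNF superfamily genes, with 95% intervals from limma, coloured by role. The 4 circled genes passed after adjustment, namely Tnfsf8 (-0.55), Tnfsf14 (-0.54) and Tnfrsf1b (-0.35) below 0 and Ltb (0.42) above it.

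The receptors of TNF itself were both lower, and 1 of them passed. Tnfrsf1b (TNFR2), which recruits TRAF proteins and has no death domain, was at 10.51 and 10.53 in WT and at 10.22 and 10.13 in Id2 KO. It fell by 0.35 (95% interval -0.53 to -0.16, 1.27-fold, adjusted p = 0.0325). With each array centred on its median it did not pass (-0.33, adjusted p = 0.0618), with no filter (0.0632) or with a replicate block (0.0891), nor without WT replicate 1, WT replicate 2 or Id2 KO replicate 2 (adjusted p = 0.169, 0.155 and 0.0951). Tnfrsf1a (TNFR1), the death domain receptor of TNF, was at 10.52 and 10.65 in WT and at 10.32 and 10.22 in Id2 KO. Its groups did not overlap, but its difference of -0.32 (95% interval -0.51 to -0.12) did not pass (adjusted p = 0.0640). With renewed quantile normalization it did (-0.36, adjusted p = 0.0282). Monocytes, macrophages and neutrophils carry both receptors. In the same arrays 4 of 6 tested monocyte markers and 6 of 8 red pulp macrophage markers fell and none rose. Among those that fell, Chil3 and Slc40a1 entered the test through the WT arrays alone. The summed intensity of the monocyte markers was 3503 and 3652 in WT against 2760 and 2930 in Id2 KO, and Ccr2 and Vcan lay below the filter level throughout. The summed macrophage intensity was 3458 and 3939 in WT against 2528 and 2608 in Id2 KO, and Cd163, Mertk and Cd5l lay below the filter level. Their part in the values of Tnfrsf1a and Tnfrsf1b was not tested.

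None of the 5 tested death domain receptors passed, beside 8.04% of all tested genes, and they did not share a direction. Fas, which triggers apoptosis when bound by Fas ligand, was at 6.63 and 6.69 in WT and at 6.91 and 7.30 in Id2 KO. Both Id2 KO arrays were higher, while WT lay below the filter level of 6.77, so Fas entered the test through the Id2 KO arrays. The difference was 0.45 (95% interval 0.17 to 0.72, adjusted p = 0.0604). It passed with median-centred arrays (adjusted p = 0.0228), with renewed quantile normalization (0.0463) and without Id2 KO replicate 1 (0.64, adjusted p = 0.00312), whereas without Id2 KO replicate 2 the difference was 0.25. Tnfrsf21 (death receptor 6) was at 8.80 and 9.01 in WT and at 8.65 and 8.41 in Id2 KO, a difference of -0.37 (95% interval -0.62 to -0.13, adjusted p = 0.0778). It passed with renewed quantile normalization (adjusted p = 0.0323) and without Id2 KO replicate 1 (-0.49, adjusted p = 0.0292). Without Id2 KO replicate 2 it was -0.25 (adjusted p = 0.224), and without WT replicate 2 it was -0.27 (adjusted p = 0.333). Ngfr, the p75 neurotrophin receptor, and Tnfrsf25 (death receptor 3) differed by 0.04 and -0.03. Tnfrsf10b, the TRAIL receptor, lay below the filter level on every array.

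Of the receptors without a death domain, 12 were tested and Tnfrsf1b was the only one called. This is 8.33%, near the 8.04% of all tested genes. Tnfrsf18 (GITR), better known on regulatory T cells, was at 9.15 and 9.22 in WT and at 9.03 and 8.96 in Id2 KO (difference -0.20, 95% interval -0.38 to -0.01, adjusted p = 0.216). Its neighbour on chromosome 4, Tnfrsf4 (OX40), pointed the other way, at 7.65 and 7.58 in WT and at 7.76 and 7.91 in Id2 KO (difference 0.22, adjusted p = 0.198). Ltbr, the receptor of lymphotoxin and LIGHT, was at 7.96 and 8.002 in WT and at 7.87 and 7.70 in Id2 KO. Its groups did not overlap, and its difference of -0.20 (95% interval -0.40 to 0.0047) did not pass (adjusted p = 0.253).

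The intervals of several receptors were narrow enough to bound the difference between the groups of these 4 arrays. Their width rests on 2 residual degrees of freedom and on 6.77 taken from the spread of all tested genes. Over the whole family the intervals of 12 tested genes lay within 0.32 of 0 on the log2 scale. Among them were Tnfrsf11a (RANK), a survival receptor of dendritic cells, with a difference of 0.03 (95% interval -0.17 to 0.22), and Tnfrsf14 (HVEM), with 0.01 (-0.19 to 0.20). Tnfrsf8 (CD30) with 0.00 (-0.22 to 0.22) and Tnfrsf12a (Fn14), the receptor of TWEAK, with -0.05 (-0.23 to 0.14) were also bounded in this way. Tnfrsf9 (4-1BB) was not, with 0.17 (-0.12 to 0.46) and WT replicates 0.40 apart.

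None of the receptors typical of B cells passed the test, beside 8.04% of all tested genes. Tnfrsf13c (BAFF receptor), which mature B cells need for survival, was at 8.23 and 8.16 in WT and at 8.07 and 8.24 in Id2 KO. Its groups overlapped and its difference was -0.04 (95% interval -0.24 to 0.16). Tnfrsf13b (TACI), a second receptor of BAFF, was at 7.76 and 7.77 in WT and at 7.73 and 7.86 in Id2 KO. Cd27, carried by memory B cells and T cells, was at 6.83 and 7.01 in WT and at 6.74 and 6.89 in Id2 KO, the dimmest member that entered the test. Tnfrsf17 (BCMA), the plasma cell receptor, lay below the filter level on every array. By comparison, the median difference of the 12 tested B cell markers was 0.86, with a range from -0.56 (Cd22) to 1.67 (Fcmr). Of these 12, 10 rose, Cd22 fell and Ighm did not pass. Ms4a1 (CD20), among the larger rises, went from 7.07 and 7.16 in WT to 8.57 and 8.72 in Id2 KO. The part of B cells in the values of these receptors was not tested.

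The receptors listed as decoys were dim. Of Tnfrsf11b (osteoprotegerin), the mouse TRAIL decoys Tnfrsf22 and Tnfrsf23, and Tnfrsf26, only Tnfrsf22 entered the test, with a difference of -0.20 (adjusted p = 0.384). Tnfrsf23, with a mean of 6.74 over the 4 arrays, fell just short of the filter level and Cd27, with 6.87, lay just above it. Of the receptors without a death domain, Tnfrsf19 and Eda2r were also below the filter level on every array.

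Ligands and their receptors were set side by side in 18 known pairs. In no pair were both partners called, where a gene that was not tested counts as not called. Only 4 members were called and several pairs share a gene, so this count cannot show whether partners move together. In 4 pairs only the ligand was called (Ltb with Ltbr, Tnfsf14 with Ltbr and with Tnfrsf14, and Tnfsf8 with Tnfrsf8), in 1 only the receptor (Tnf with Tnfrsf1b), and in 13 neither. Of the genes in these 13 pairs, Tnfsf4, Tnfsf10, Tnfrsf10b, Tnfrsf11b, Tnfrsf17, Fasl and Cd70 were not tested. The ligands that share Ltbr differed in sign, since Ltb rose by 0.42 and Tnfsf14 fell by 0.54. Neighbouring genes had like signs in some places and unlike signs in others. Of the neighbours named here, Tnfrsf26, Tnfrsf23, Tnfsf4, Fasl and Cd70 were too dim to be tested. The share of neighbours with like signs over all genes was not computed. Cd27, Ltbr and Tnfrsf1a, on chromosome 6 with 1 gene between each, had differences of -0.10, -0.20 and -0.32, and the adjacent Tnfrsf26, Tnfrsf22 and Tnfrsf23 on chromosome 7 had -0.10, -0.20 and -0.16. The adjacent Tnfsf4, Tnfsf18 and Fasl on chromosome 1 had 0.16, -0.07 and -0.05. Tnfsf9, Cd70 and Tnfsf14 are adjacent on chromosome 17, with differences of -0.46, 0.12 and -0.54, and Tnfsf15 and Tnfsf8 are adjacent on chromosome 4, with 0.02 and -0.55. Tnfrsf1b and Tnfrsf8 are adjacent on the same chromosome, with -0.35 and 0.00.

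The Id2 KO replicates were unequal for many members. Of the 10 tested members that were lower without overlap, 8 had their lowest value on Id2 KO replicate 2 (Ltbr, Tnfrsf18, Tnfrsf1a, Tnfrsf1b, Tnfrsf21, Tnfsf14, Tnfsf8 and Tnfsf9) and 2 on replicate 1 (Tnfrsf25 and Tnfsf13b). Without replicate 1 the called members numbered 7, while 6.63% of all tested genes were called, and without replicate 2 they numbered 3, while 9.79% of all were. Leaving out WT replicate 1 left 1 member and 3.84% of all tested genes, and leaving out WT replicate 2 left 2 members and 5.24%. In 17 of the 28 tested genes the difference was smaller than the wider of the gaps between replicates. Neither this count nor that of the lowest arrays was computed over all tested genes. For some members the Id2 KO arrays lay close, as for Tnfsf14 (9.08 and 9.05) and Tnfrsf18 (9.03 and 8.96).

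**Figure D3:**
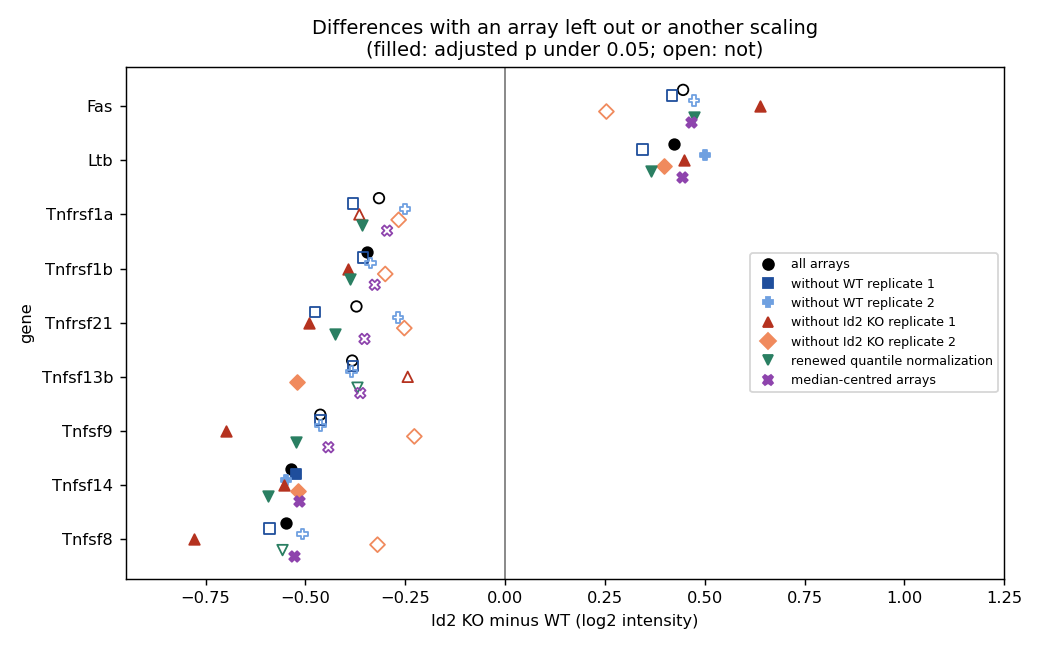
Difference between Id2 KO and WT in log2 intensity for the 9 tested members with a difference over 0.3 in size, for all arrays, for the 3 that remain when 1 is dropped and for both other scalings, filled where the adjusted p was under 0.05. Tnfsf14 is filled throughout, between -0.59 and -0.52, whereas the points of Tnfsf8 spread from -0.78 to -0.32 and those of Tnfsf9 from -0.70 to -0.23.

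Among the genes that carry TNF signals inside the cell, a few rose. The lists of adaptors, kinases and ubiquitin enzymes, NF-κB genes, sheddases and relatives outside the symbol rule held 62 measured genes, of which 54 were tested, 5 rose and none fell. This is 9.26% of the tested genes, beside 5.53% of all that rose and 8.04% of all called in either direction. The median difference of the tested genes was 0.06. Among 17 tested receptor adaptors and death effectors, Ripk3, the kinase of necroptosis, rose by 0.36 (9.01 and 9.07 WT, 9.46 and 9.34 Id2 KO, adjusted p = 0.0337). Birc2 (cIAP1), a ubiquitin ligase at the receptors of TNF, rose by 0.33 (adjusted p = 0.0460), a call that held in 4 of 12 alternatives. It was lost with no filter (0.0869), with renewed quantile normalization (0.0963), with the mean of its probe sets (0.0826), with a replicate block (0.0961) and with each array left out. For Ripk3 it held in 7 of 12, and was lost with no filter (0.0648) and with a replicate block (0.0931). Xiap (0.38) and Traf6 (0.35) did not pass (adjusted p = 0.101 and 0.0810). None of the 18 tested kinases and ubiquitin enzymes passed, beside 8.04% of all tested genes. Their differences lay between -0.18 (Tnfaip3, the inhibitor A20) and 0.15 (Rbck1, a subunit of the linear ubiquitin ligase), and Tab2 was at -0.14.

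NF-κB genes and sheddases held the other calls, in 22.2% and 14.3% of the tested genes of each list, beside 8.04% of all tested genes. Of 9 tested NF-κB subunits and inhibitors, Bcl3 rose by 0.47 (adjusted p = 0.0242) and Relb, the subunit activated downstream of Ltbr and also among the cDC2 markers, rose by 0.42 (adjusted p = 0.0305). With renewed quantile normalization neither passed (0.0722 and 0.0658), and Relb did not pass with no filter (0.0557). The third largest difference, of the inhibitor Nfkbia, was 0.18 (adjusted p = 0.250). Adam17, the protease that sheds TNF and its receptors from the cell surface, was at 9.63 and 9.72 in WT and at 10.15 and 10.09 in Id2 KO and rose by 0.44 (95% interval 0.26 to 0.63, adjusted p = 0.0111), as the only 1 of 7 tested genes of shedding and processing. The protease gene Furin (-0.31) and Sppl2a (0.30), an intramembrane protease, did not pass (adjusted p = 0.0873 and 0.108). Of the relatives outside the rule, Cd40 (0.05), Relt (0.07) and Btla (0.11), which binds Tnfrsf14, did not pass and the other 4 lay below the filter level. Without WT replicate 1 none of the 54 passed in limma, where 3.84% of all tested genes did, and 6 had an unadjusted p under 0.05. Without WT replicate 2 Adam17 and Xiap passed, without Id2 KO replicate 1 Adam17, Bcl3 and Relb passed, and without Id2 KO replicate 2 Adam17 and Ripk3 passed, beside 5.24%, 6.63% and 9.79% of all tested genes.

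**Figure D4:**
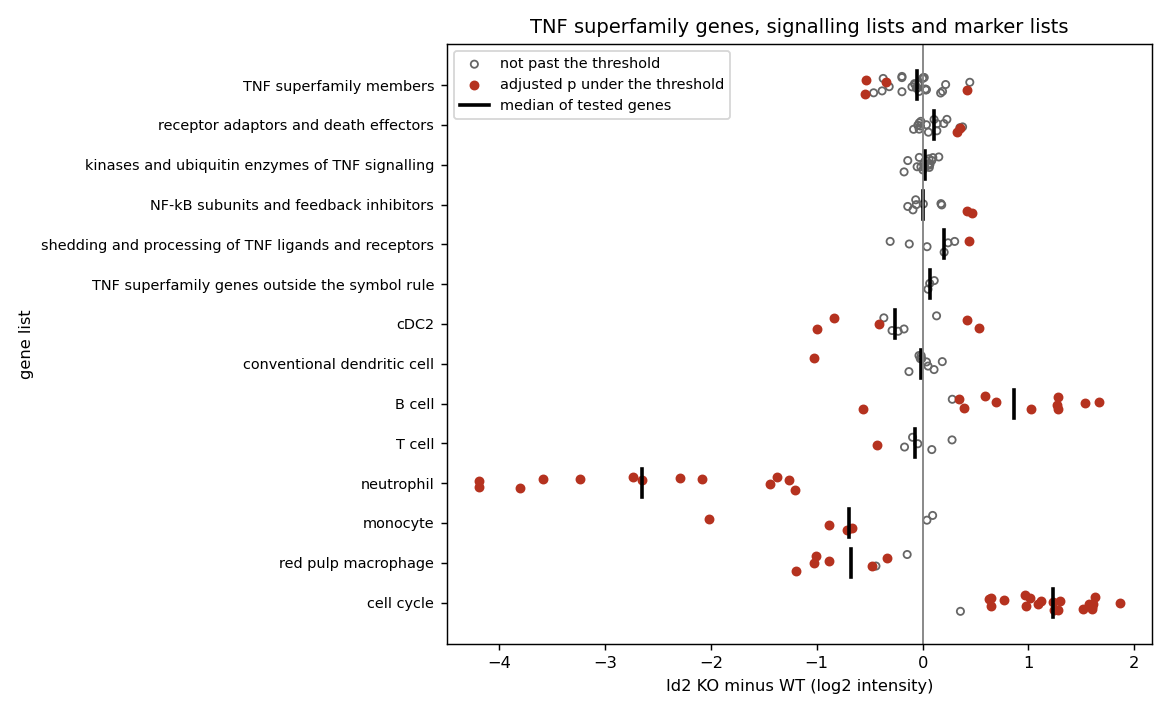
Difference between Id2 KO and WT in log2 intensity for each tested gene of the TNF superfamily, the 5 signalling lists and 8 marker lists, with genes past the threshold in red and the median of each list as a bar. The TNF superfamily lies between -0.55 and 0.45, while neutrophil markers reach -4.19 and B cell markers 1.67.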

How the data were processed

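RNA of sorted splenic cDC2 was amplified and labelled with a NuGen Ovation PicoSL kit, per the labels' protocols. Each deposited value is a linear intensity of a probe set. Affymetrix Expression Console and RMA are named, without version, in the submitters' processing notes, and a return from the log scale of RMA is not recorded. Array medians were 134 and 130 (WT) and 128 and 132 (Id2 KO), and the number of arrays limits the precision. Log2 was taken of the deposited intensity values.

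Of 28853 probe sets, 21789 had 1 symbol. The brightest stood for each gene. Genes with a mean over the 40th percentile (log2 6.77) were tested with limma 3.58.1 (R 4.3.3, two-sided, group only, Benjamini-Hochberg over 11963 genes). The procedure was also tested on simulated data, where it recovered 9.3% of 1.25-fold changes and 83.5% of 1.5-fold changes. Changes near 1.25-fold would thus mostly be missed. All intervals and adjusted p-values are limma's. The members and lists were chosen with earlier results of these data known. Values per array were to be given for members past the threshold, the 6 largest differences that did not pass and the 6 brightest. Those for Ltbr, Lta, the B cell receptors and single markers were added after their values were seen. The alternatives were other filters, scalings, probe set means, a variance trend, a pseudocount of 16, a replicate block and each array left out. Whether replicate numbers pair the arrays is not given, and the block stands with the alternatives.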

Additional observations from a re-analysis of the deposited data

How the results depend on the processing

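Under 12 alternative settings the 4 called members kept call and sign in 34 of 47 values, and of 325 values of the 28 tested members 307 kept their sign. The count of called members was 4 and became 2 without a filter, 7 with renewed quantile normalization, 2 with a replicate block and 1 to 7 with an array left out. The signalling genes, 5 with all arrays, became 2, 3, 3 and 0 to 3 under the same settings (0 without WT replicate 1, where 6 of 54 had an unadjusted p under 0.05). All changed genes, 962, ranged from 459 to 1171 with an array left out and were 684 with the block. Without a filter 832 of all 19938 genes were called (4.17%), beside 5.13% of the members and 3.23% of the signalling genes. With renewed quantile normalization 1017 of all 11963 were called (8.5%), beside 25% and 5.56%. With the block the shares were 5.72% of all, 7.14% and 5.56%. Deviations of arrays with the same number correlated at -0.144 over the tested genes. A crossed replicate block, chosen after seeing the data, gave 9 members, 9 signalling genes and 1380 genes in all. Of the 11 members that changed sign under some alternative, none was called. With renewed quantile normalization Tnfrsf11a was at -0.031, Tnfrsf14 at -0.048 and Tnfsf15 at -0.0020. With an array left out the ranges were -0.19 to 0.074 for Lta, -0.034 to 0.11 for Ngfr, -0.048 to 0.10 for Tnfrsf11a, -0.030 to 0.091 for Tnfrsf13b, -0.13 to 0.042 for Tnfrsf13c, -0.056 to 0.070 for Tnfrsf14, -0.084 to 0.086 for Tnfrsf8, -0.028 to 0.37 for Tnfrsf9, -0.28 to 0.12 for Tnfsf11, -0.16 to 0.19 for Tnfsf15 and -0.16 to 0.022 for Tnfsf18. Fewer arrays leave fewer degrees of freedom, and a lone array was assumed to vary like the other group. Otherwise the cause was not tested. No signal over background was given, which limits what can be said of the 11 dim genes.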

Other observations

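The TNF superfamily genes varied more between the Id2 KO replicates than between the WT replicates. The SD was larger in Id2 KO for 26 of the 39 members, or 66.7%, beside 50.9% of all 19938 genes. The median SD of the members was 0.05 in WT and 0.11 in Id2 KO on the log2 scale, while over all genes it was 0.07 in both groups. Tnfsf9 is an example, with an SD of 0 in WT, where both arrays held the same value, and 0.33 in Id2 KO, as are Tnfsf8 with 0.06 and 0.32 and Tnfsf15 with 0.04 and 0.24. With 2 arrays per group these SDs are imprecise, and no test of the difference was made.

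The probe set that names Tnfsf12 (TWEAK), Tnfsf13 (APRIL) and their joined transcript was at 7.23 and 7.17 in WT and at 7.05 and 7.07 in Id2 KO. Its values cannot be assigned to 1 of these genes.

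Of the other marker lists, 5 of 9 tested markers of plasmacytoid dendritic cells and 1 of 5 of plasma cells rose and none fell. Blnk, 1 of the 5 that rose, entered the test through the Id2 KO arrays alone. In the lists of cDC1, NK cells and erythroid cells, 1 of 5, 1 of 3 and 3 of 4 tested markers fell and none rose. Their part in the values of the TNF superfamily genes was not tested.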
